A study of Mus musculus with 11 samples.

Results

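The CXC chemokines and the Cxcl12 axis were followed through 10 genes, taken by symbol from the 55414 gene identifiers in the deposited tables. They are 8 CXC ligands (Cxcl1, Cxcl2, Cxcl9, Cxcl10, Cxcl12, Cxcl13, Cxcl14 and Cxcl16) and 2 receptors of Cxcl12 (Cxcr4 and Ackr3). RNA was sequenced in bulk from the heart apex of C57BL/6 mice, a laboratory strain for which the labels give no further alleles, age or sex. The 3 F-PRT libraries came from apexes given 40 Gy of FLASH proton radiotherapy, in which the dose is delivered at an ultra-high rate. The 4 S-PRT libraries came from apexes given the same dose of proton radiotherapy at the standard rate, and the 4 NR libraries from hearts without irradiation. Irradiated apexes were taken 2 weeks after a focal exposure in a single session. No label ties a library to an animal, so the tests weigh differences against a spread between libraries that may be technical only.

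CXC chemokines are small secreted proteins that steer leukocytes through G protein-coupled receptors. Cxcl1 and Cxcl2 attract neutrophils through Cxcr2, whereas Cxcl9 and Cxcl10 are induced by interferons and attract T and NK cells through Cxcr3. Cxcl12 is made at rest by fibroblasts, endothelial cells and pericytes, signals through Cxcr4, and is bound and taken up by Ackr3, a receptor that scavenges it without coupling to G proteins.

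Libraries held 20758170 to 40136578 expected counts, the reads that RSEM assigned to genes. Levels are given as CPM, counts relative to the library total, scaled between libraries with TMM, or as TPM, which is also divided by transcript length. Cardiac transcripts were abundant throughout: the summed TPM of 7 cardiomyocyte markers was 29100 to 52100 in F-PRT, 25700 to 29800 in S-PRT and 25300 to 35600 in NR libraries. Mitochondrially encoded genes held 24.2% to 42.3% of counts in F-PRT, 37.1% to 43.5% in S-PRT and 30.6% to 43.8% in NR libraries. A library-wide trend with transcript length went with the groups. Its rank correlation with log2 CPM, centred per gene, was -0.556 to -0.162 in F-PRT, -0.257 to 0.267 in S-PRT and 0.338 to 0.418 in NR libraries.

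Cxcl12 fell and Cxcl10 rose after both kinds of proton radiotherapy, and no member was called between them, all in edgeR's quasi-likelihood test at an adjusted p under 0.05. Cxcl12 averaged 42.8 ± 20.7 CPM in F-PRT, 41.6 ± 2.98 in S-PRT and 97.1 ± 10.8 in NR libraries (SD, n = 3, 4 and 4). Cxcl10 averaged 2.57 ± 1.72 CPM in F-PRT, 2.93 ± 2.06 in S-PRT and 0.328 ± 0.306 in NR libraries. Of the 10 members, 8 passed the filter on low counts and were tested, and Cxcl2 and Cxcl13 did not pass it. In F-PRT against NR, 1 tested member was called higher and 1 lower, beside 10.8% and 8.67% of all 14556 genes tested (19.5% in either direction). In S-PRT against NR, 1 was called higher and 1 lower, beside 0.872% and 0.419% of genes (1.29% in either direction). With the replicate number as a block, S-PRT against NR had 4 members called, 3 higher (Cxcl1, Cxcl10 and Cxcl16) and 1 lower (Cxcl12). That was among 1371 genes called, against 188 without the block, and the pairing behind the block is weak. The block left 0 members called in F-PRT against NR. With the length trend removed, 0 members were called in either comparison with NR. In F-PRT against S-PRT, edgeR called 0 members and 0.0% of genes. At an unadjusted p under 0.05 it had 0 members and 2315 genes there, and DESeq2 called 0 members and 168 genes. The median log2 fold change of the tested members was -0.02 in F-PRT against NR and 0.24 in S-PRT against NR, against 0.03 and 0.01 over all genes. The comparisons with NR share the same NR libraries.

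**Figure D1:**
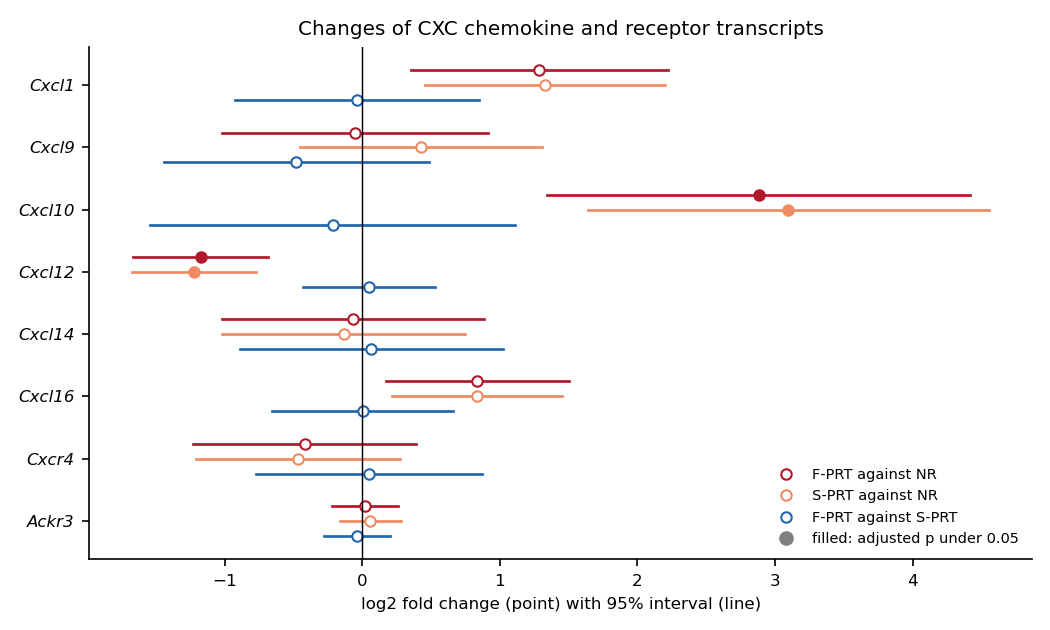
Log2 fold changes of the 8 tested members in the 3 comparisons, with points for the edgeR estimate, lines for its 95% interval and filled points for an adjusted p under 0.05. Only the Cxcl10 and Cxcl12 points against NR are filled, at 2.88 and 3.10 for Cxcl10 and at -1.18 and -1.22 for Cxcl12, and every F-PRT against S-PRT interval spans 0.

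**Figure D2:**
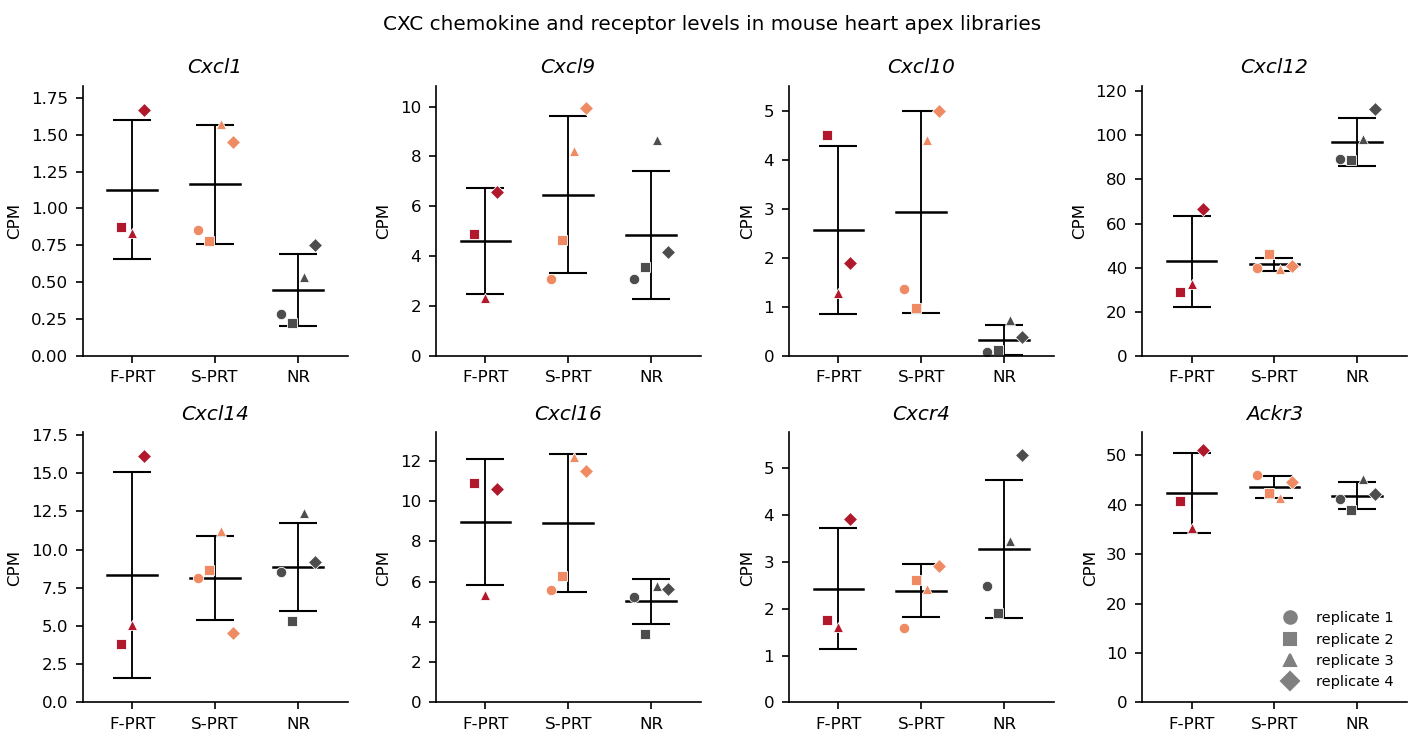
CPM of the 8 tested members in each library by group, with symbols for replicate numbers, a long bar for the group mean and whiskers for 1 SD (n = 3, 4 and 4). The irradiated libraries all lie below the NR libraries for Cxcl12 and all above them for Cxcl10 and Cxcl1, while Ackr3 lies between 35.3 and 51.2 CPM in all 11 libraries.

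The resting ligand was the most abundant member in unirradiated apex. The 250 bases before the Cxcl12 start are shown because this gene fell in both comparisons. They lie at chr6:117168285-117168534 on the plus strand of GRCm38.p6 (RefSeq), and hold no match on either strand to the 4 motifs searched, which were the interferon-stimulated response element, an NF-kB element, a STAT element (TTC and GAA, 3 bases apart) and the hypoxia response element ACGTG, so no capitals are used:
Cxcl12 promoter: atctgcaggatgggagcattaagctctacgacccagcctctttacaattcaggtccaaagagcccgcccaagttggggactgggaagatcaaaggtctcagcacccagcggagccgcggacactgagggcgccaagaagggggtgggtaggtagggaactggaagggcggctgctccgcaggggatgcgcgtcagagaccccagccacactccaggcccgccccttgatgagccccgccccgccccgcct

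Cxcl12 (ENSMUSG00000061353.12) stood at 29.1, 32.8 and 66.6 CPM in F-PRT replicates 2 to 4. It stood at 40.0, 46.0, 39.4 and 40.9 CPM in S-PRT replicates 1 to 4, and at 89.2, 88.9, 98.3 and 112 CPM in NR replicates 1 to 4. Every irradiated library was below every NR library, and F-PRT replicate 4 was nearest to them. The log2 fold change was -1.18 ± 0.23 in F-PRT against NR (SE, edgeR adjusted p = 0.00934, 95% interval -1.67 to -0.68). It was -1.22 ± 0.21 in S-PRT against NR (edgeR adjusted p = 0.021, 95% interval -1.67 to -0.78). All F-PRT libraries were below all NR libraries in CPM for 13.9% of tested genes, and all S-PRT libraries for 6.71%. In bulk tissue, fewer cells of a type and less RNA per cell cannot be told apart.

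On the TPM scale the order of the groups held for S-PRT and not for every F-PRT library. Cxcl12 was at 8.78, 6.92 and 25.1 TPM in F-PRT replicates 2 to 4. It was at 7.57, 8.5, 10.1 and 10.9 TPM in S-PRT replicates 1 to 4, and at 16.1, 18.4, 23.4 and 31.1 TPM in NR replicates 1 to 4. F-PRT replicate 4 lay within the NR range, and the other irradiated libraries lay below it. That replicate also had the lowest share of mitochondrially encoded counts, 24.2% against 30.6% to 43.8% in NR libraries. Its deposited Cxcl12 length, described below, was the shortest, 3099 bases against 4396 to 4462 in NR libraries. A shorter length gives a higher TPM for the same count. The parts of this share and of this length in the TPM values were not tested. All S-PRT libraries were below all NR libraries in TPM for 4.01% of genes, and all F-PRT libraries for 7.3%. Once the length trend of each library was removed, the log2 fold change of Cxcl12 was -0.98 in F-PRT against NR and -1.14 in S-PRT against NR, with edgeR adjusted p of 0.0528 and 0.057. Over 10 alternative settings the adjusted p of Cxcl12 ran between 5.69e-06 and 0.268 in F-PRT against NR and between 1.07e-06 and 0.277 in S-PRT against NR. The call in F-PRT against NR held when each of the 11 libraries was left out, with adjusted p of 0.000167 to 0.0263. The log2 fold change there was -1.65 without F-PRT replicate 4. The call in S-PRT against NR was lost without NR replicate 1, 3 or 4 (edgeR adjusted p = 0.0522, 0.0621 and 0.0822) or S-PRT replicate 3 (edgeR adjusted p = 0.0642), while the log2 fold change stayed between -1.27 and -1.15.

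The deposited length of Cxcl12, an average over its isoforms weighted by their estimated abundance, also differed between the groups. The files list 4 Cxcl12 transcripts, all found in GENCODE M21, of 1878, 2894, 3132 and 5627 bases, of which the transcript of 2894 bases is annotated as a retained intron and the others as protein coding. The weighted length was 3617, 3707 and 3099 bases in F-PRT replicates 2 to 4. It was 4059, 4127, 3566 and 3896 bases in S-PRT replicates 1 to 4, against 4443, 4462, 4412 and 4396 bases in NR replicates 1 to 4. Every irradiated library had a shorter weighted length than every NR library, and F-PRT replicate 4 had the shortest. The group mean was lower by 21.5% in F-PRT and by 11.7% in S-PRT than in NR. Of 12231 tested genes with a length that varied, 9.07% had all F-PRT and 2.62% all S-PRT libraries shorter than NR, and 4.35% and 5.52% shortened by a larger percentage than Cxcl12. This measure was chosen after its values were seen and has no test. Between the groups the length went the same way as the library-wide length trend, but it did not follow that trend from library to library within S-PRT or NR. The part of the trend in the length was not tested.

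**Figure D3:**
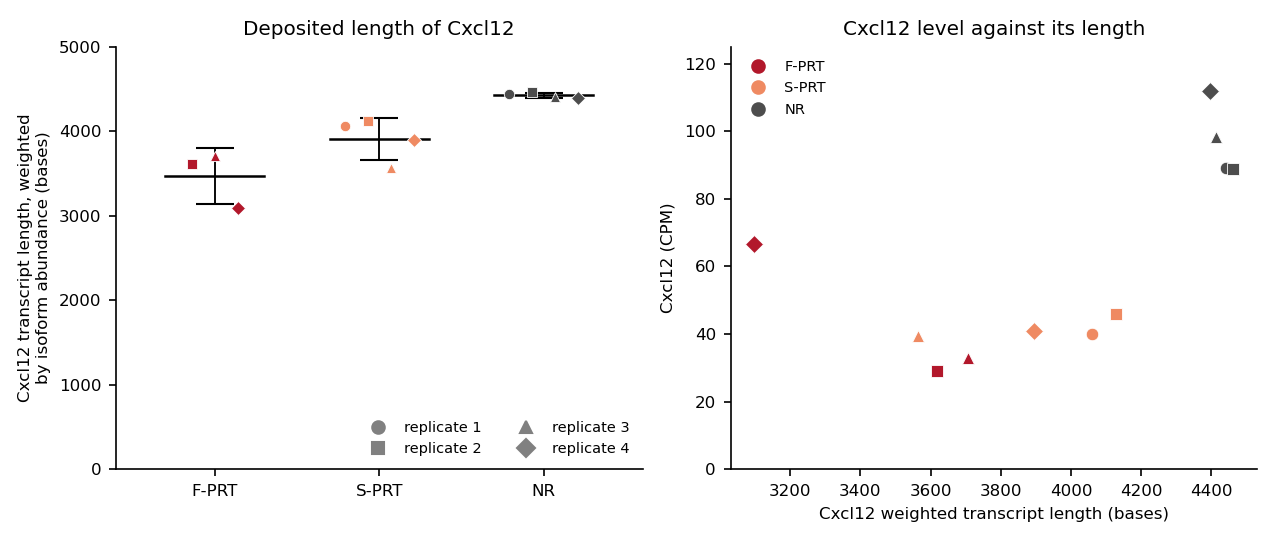
Left, the deposited transcript length of Cxcl12 in bases, weighted by isoform abundance, by group, with symbols for replicates, a bar for the mean and whiskers for 1 SD (n = 3, 4 and 4). Right, the CPM of Cxcl12 against that length, 1 point per library: the NR points sit together at 4396 to 4462 bases and 88.9 to 112 CPM, and F-PRT replicate 4 stands apart at 3099 bases and 66.6 CPM.

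Cxcl12 was set against 27 markers of the cells that make it, 10 of fibroblasts, 10 of endothelium and 7 of pericytes, as a log2 ratio of TPM within each library. The ratio was -0.46, -0.04 and 0.40 in F-PRT replicates 2 to 4. It was -0.26, -0.22, -0.43 and -0.41 in S-PRT replicates 1 to 4, against 0.34, 0.70, 0.33 and 0.35 in NR replicates 1 to 4. All S-PRT libraries were below all NR libraries, whereas F-PRT replicate 4 lay inside the NR range. TPM is divided by the weighted length, 3099 bases for Cxcl12 in that replicate against 4396 to 4462 in NR libraries. A shorter length gives a higher ratio for the same count. The part of the length in the ratio was not tested. The mean was -0.03 ± 0.43 in F-PRT, -0.33 ± 0.11 in S-PRT and 0.43 ± 0.18 in NR libraries. The difference from NR was -0.46 in F-PRT (exact two-sided permutation p = 0.114, adjusted over 9 ratio tests 0.257). It was -0.76 in S-PRT (exact two-sided permutation p = 0.0286, adjusted 0.0857), where 0.0286 is the smallest p the design allows, so it did not pass the adjusted threshold.

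Markers of these cell types were read beside Cxcl12. Of 10 endothelial markers, 2 were called lower in both comparisons with NR, Tek and Flt1, the receptors of angiopoietins and of VEGF, beside 8.67% of all genes called lower in F-PRT and 0.419% in S-PRT. In F-PRT 1 was called higher, Egfl7, beside 10.8% of all genes. Their median log2 fold change was -0.57 in F-PRT and -0.56 in S-PRT against NR, and their summed TPM was 117 to 313 in F-PRT, 119 to 199 in S-PRT and 145 to 288 in NR libraries. Of 10 fibroblast markers, 2 were called lower in F-PRT, Pdgfra and Gsn, and 0 in S-PRT, with medians of -0.56 and -0.07 and summed TPM of 165 to 600 in F-PRT, 353 to 443 in S-PRT and 358 to 887 in NR libraries. Of 7 pericyte markers, 1 was called lower in F-PRT, Abcc9, and 0 in S-PRT, with medians of -0.35 and -0.36 and summed TPM of 77.6 to 172 in F-PRT, 73.7 to 128 in S-PRT and 103 to 187 in NR libraries. With the replicate number as a block, S-PRT against NR had 5 endothelial, 1 fibroblast and 3 pericyte markers called lower. The block raised the calls over all genes there as well. With the length trend removed, the calls left were 1 endothelial (Tek) and 1 pericyte marker in F-PRT and 0 in S-PRT, and Flt1 was at -0.44 in F-PRT and -0.81 in S-PRT (edgeR adjusted p = 0.308 and 0.125). The part of these marker levels in the Cxcl12 result was not tested.

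The genes whose profile over the 11 libraries lay closest to that of Cxcl12 were Tek, Ednrb, Flt1, Igfbp3 and Myoc. Likeness was the root mean square difference of log2 CPM, each gene centred on its mean, over 12868 genes. It was 0.179 for Tek, 0.184 for the endothelin receptor gene Ednrb, 0.218 for Flt1, 0.225 for the IGF-binding protein gene Igfbp3 and 0.234 for Myoc, which encodes myocilin. Cxcl12 itself deviated from its own mean by 0.666 on that scale. All 5 had negative log2 fold changes against NR, between -1.47 and -0.82 in F-PRT and between -1.26 and -0.93 in S-PRT. These neighbours share libraries and their scaling with Cxcl12, and the ranking is a description with no test. They were picked for likeness to Cxcl12, so fold changes of the same sign follow from the ranking.

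**Figure D4:**
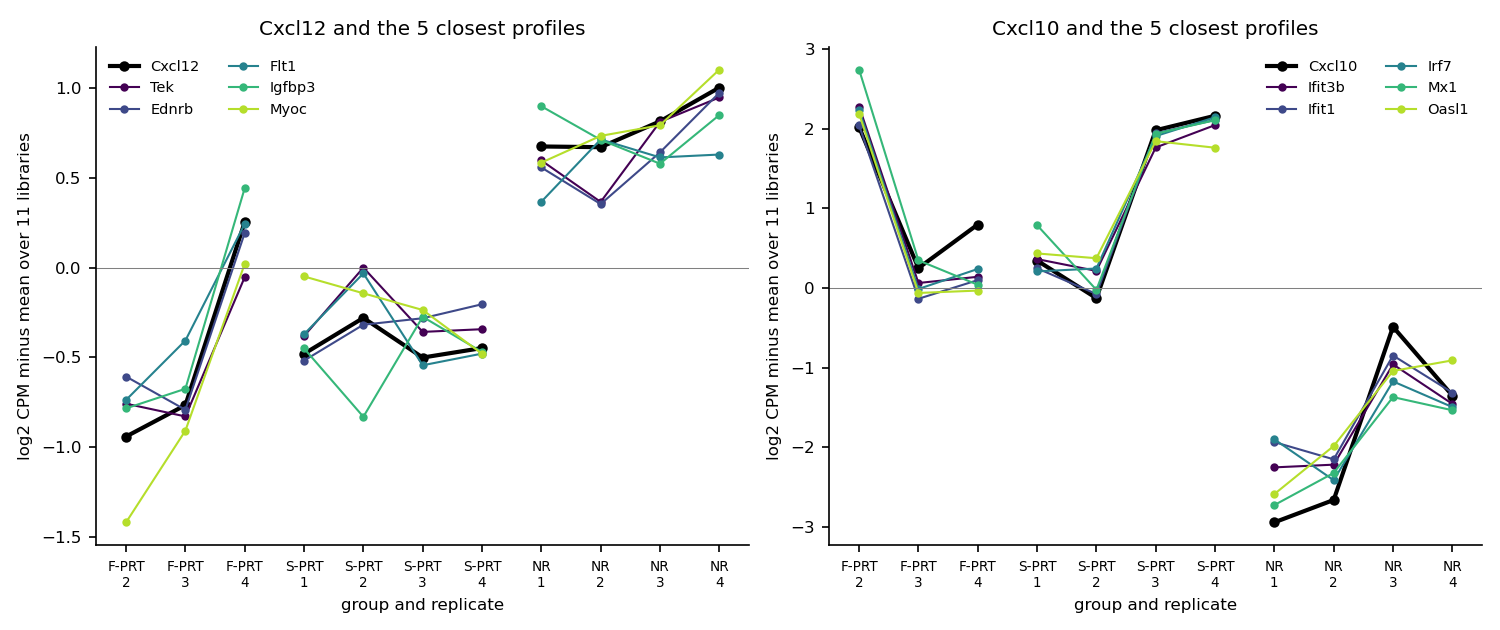
Log2 CPM minus the gene's mean over 11 libraries (y axis) for each library by group and replicate (x axis), for Cxcl12 and its 5 closest profiles (left) and Cxcl10 and its 5 closest profiles (right). Cxcl12 and Tek are both highest in NR replicate 4, at 1.0 and 0.95, and Cxcl10 has its highest values in S-PRT replicate 4, F-PRT replicate 2 and S-PRT replicate 3.

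Among the interferon-inducible ligands Cxcl10 rose and its neighbour Cxcl9 did not pass the test. Both genes lie side by side on chromosome 5, and their 250 upstream bases are shown because they differ in a motif. Cxcl10 lies at chr5:92348890-92349139 and Cxcl9 at chr5:92328080-92328329, both on the minus strand of GRCm38.p6 (RefSeq), given 5′ to 3′ along the gene. Capitals mark a match to the core of the interferon-stimulated response element, GAAA and GAAA with any 2 bases between them, searched on both strands:
Cxcl10 promoter: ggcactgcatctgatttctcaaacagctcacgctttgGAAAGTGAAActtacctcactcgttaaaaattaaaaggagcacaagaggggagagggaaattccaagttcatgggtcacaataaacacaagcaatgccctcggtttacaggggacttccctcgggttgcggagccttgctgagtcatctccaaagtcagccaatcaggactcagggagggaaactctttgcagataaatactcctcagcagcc
Cxcl9 promoter: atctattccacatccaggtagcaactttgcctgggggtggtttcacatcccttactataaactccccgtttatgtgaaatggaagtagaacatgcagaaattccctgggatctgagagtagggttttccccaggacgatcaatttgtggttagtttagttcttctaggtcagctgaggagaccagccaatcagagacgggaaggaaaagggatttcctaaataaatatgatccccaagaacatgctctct
The match in Cxcl10, GAAAGTGAAA, spans bases 213 to 204 before the start. That motif stands in 2.98% of 32851 mouse promoters of the same length, and among the 9 members with a promoter in the table it stands in Cxcl10 and Cxcl14. A match is a description of letters and not a site, and its absence in the Cxcl9 window says nothing of a factor. The Cxcl9 window was chosen after values were seen.

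Cxcl10 (ENSMUSG00000034855.14) stood at 4.52, 1.28 and 1.90 CPM in F-PRT replicates 2 to 4. It stood at 1.37, 0.97, 4.40 and 5.0 CPM in S-PRT replicates 1 to 4, and at 0.0804, 0.112, 0.741 and 0.377 CPM in NR replicates 1 to 4. Every irradiated library was above every NR library, with F-PRT replicate 2 and S-PRT replicates 3 and 4 the highest. In NR libraries 1 to 4 these levels rest on 2, 3, 25 and 17 reads. The log2 fold change was 2.88 ± 0.71 in F-PRT against NR (SE, edgeR adjusted p = 0.0181, 95% interval 1.34 to 4.42). It was 3.10 ± 0.67 in S-PRT against NR (edgeR adjusted p = 0.0449, 95% interval 1.64 to 4.56). All F-PRT libraries were above all NR libraries in CPM for 17.5% of tested genes, and all S-PRT libraries for 7.34%. The groups were separate on the TPM scale as well, which held for 2.67% and 0.845% of genes. Cxcl10 overlaps Art3 in the RefSeq annotation, and Art3 had log2 fold changes of -0.11 in F-PRT and -0.07 in S-PRT against NR. Art3 was far more abundant, at 160 to 170 CPM in F-PRT, 158 to 190 in S-PRT and 169 to 196 in NR libraries. Whether Art3 reads entered the Cxcl10 counts was not tested.

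The Cxcl10 calls depended on single libraries. In F-PRT against NR its call was lost without F-PRT replicate 2 (log2 fold change 2.20, edgeR adjusted p = 0.0733). In S-PRT against NR it was lost without each of NR replicates 1 to 4 (edgeR adjusted p = 0.124, 0.121, 0.074 and 0.13) and without S-PRT replicate 3 or 4 (edgeR adjusted p = 0.139 and 0.0844), with log2 fold changes of 2.71 to 3.78. After removal of the length trend its log2 fold change was 2.58 in F-PRT and 2.98 in S-PRT, with edgeR adjusted p of 0.0715 and 0.0881. Over 10 settings the adjusted p ran between 0.0006 and 0.16 in F-PRT and between 0.000216 and 0.275 in S-PRT, and the log2 fold change was 1.36 and 1.43 in limma on log2(TPM + 1), a scale that understates changes of low genes.

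Cxcl9 (ENSMUSG00000029417.10) was at 4.90, 2.34 and 6.59 CPM in F-PRT replicates 2 to 4. It was at 3.09, 4.66, 8.21 and 9.93 CPM in S-PRT replicates 1 to 4, and at 3.10, 3.55, 8.65 and 4.15 CPM in NR replicates 1 to 4. The 3 groups overlapped. The log2 fold change of this gene was -0.06 ± 0.45 in F-PRT against NR (95% interval -1.02 to 0.91, edgeR adjusted p = 0.944). It was 0.43 ± 0.41 in S-PRT against NR (95% interval -0.45 to 1.3, edgeR adjusted p = 0.618). The TPM of Cxcl10 per TPM of Cxcl9 was 2.82, 1.53 and 0.854 in F-PRT replicates 2 to 4. It was 1.35, 0.782, 1.62 and 1.42 in S-PRT replicates 1 to 4, against 0.0603, 0.0855, 0.256 and 0.282 in NR replicates 1 to 4. Cxcl9 was thus the more abundant of the pair in each NR library, and Cxcl10 in all irradiated libraries except F-PRT replicate 4 and S-PRT replicate 2. This ratio was chosen after its values were seen and is given without a test.

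Of 12 type I interferon response genes, 8 were called higher in F-PRT and 4 in S-PRT against NR, with 0 lower and median log2 fold changes of 2.12 and 2.23. The shares of all genes called higher were 10.8% and 0.872%. The transcription factor gene Irf7 was at 106, 22.2 and 26.4 CPM in F-PRT, at 25.9, 26.5, 84.1 and 99.1 CPM in S-PRT and at 5.95, 4.15, 9.90 and 7.90 CPM in NR libraries, each in replicate order. Its highest libraries were F-PRT replicate 2 and S-PRT replicates 3 and 4, the same libraries that were highest in Cxcl10. Irf7 rose by 2.87 ± 0.60 in F-PRT and 3.07 ± 0.58 in S-PRT on the log2 scale (edgeR adjusted p = 0.0114 and 0.0306), and Mx1, an antiviral GTPase, by 3.90 ± 0.81 and 3.78 ± 0.78 (edgeR adjusted p = 0.011 and 0.0374). Of the 10 tested interferon gamma response genes, 0 were called in either comparison, with medians of 0.19 and 0.15, and Ifng itself had 0 to 7 reads per library. With the replicate block, 12 of 12 type I genes and 1 of 10 interferon gamma response genes were called higher in S-PRT against NR. Calls over all genes rose with the block there too. With the length trend removed, 4 type I genes stayed called in F-PRT and 0 in S-PRT.

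The 5 profiles closest to Cxcl10 were those of Ifit3b, Ifit1, Irf7, Mx1 and Oasl1, all interferon-induced genes, at root mean square differences of 0.383, 0.432, 0.450, 0.456 and 0.461. Cxcl10 deviated from its own mean by 1.69 on that scale. The receptor gene Cxcr3 was at 9, 3 and 10 reads in F-PRT, at 0, 1, 15 and 30 reads in S-PRT and at 4, 1, 2 and 3 reads in NR libraries, in replicate order, few in most libraries. Against NR its log2 fold change was 1.76 ± 0.96 in F-PRT and 2.09 ± 0.85 in S-PRT (edgeR adjusted p = 0.201 and 0.219). Of 10 T and NK cell markers, 4 were tested and 0 were called, with medians of -0.102 in F-PRT and 0.904 in S-PRT against NR. The summed TPM of the list was 1.12 to 2.94 in F-PRT, 1.0 to 5.65 in S-PRT and 1.10 to 3.32 in NR libraries.

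The neutrophil-attracting ligands were low in every group. Cxcl1 (ENSMUSG00000029380.12) was at 0.874, 0.834 and 1.67 CPM in F-PRT replicates 2 to 4. It was at 0.857, 0.776, 1.57 and 1.45 CPM in S-PRT replicates 1 to 4, and at 0.281, 0.224, 0.533 and 0.755 CPM in NR replicates 1 to 4. Every irradiated library was above every NR library in CPM, the closest being S-PRT replicate 2 and NR replicate 4, while the groups overlapped in TPM. Such separation in CPM held for 17.5% of tested genes in F-PRT and 7.34% in S-PRT. The log2 fold change was 1.29 ± 0.43 in F-PRT against NR (95% interval 0.35 to 2.22, edgeR adjusted p = 0.053). It was 1.33 ± 0.40 in S-PRT against NR (95% interval 0.46 to 2.20, edgeR adjusted p = 0.117), so neither passed. With the replicate block Cxcl1 was called in S-PRT against NR, at 1.38 (edgeR adjusted p = 0.0164). It was called in 3 of 10 settings in F-PRT (adjusted p of 0.0317, in DESeq2, to 0.274) and in 2 of 10 in S-PRT (0.0164 to 0.48), and in F-PRT also without NR replicate 4 or F-PRT replicate 3 (edgeR adjusted p = 0.0392 and 0.0409).

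Cxcl2 (ENSMUSG00000058427.11) had 2, 0 and 8 reads in F-PRT replicates 2 to 4. It had 4, 0, 2 and 7 reads in S-PRT replicates 1 to 4, against 1, 0, 1 and 1 reads in NR replicates 1 to 4. The groups overlapped, and an exact two-sided permutation test of CPM gave p = 0.2 in both comparisons with NR. A count of 0 allows up to 0.167 CPM in F-PRT replicate 3, 0.145 CPM in S-PRT replicate 2 and 0.112 CPM in NR replicate 2, for counting error only. The upstream windows of Cxcl1 and Cxcl2, which are neighbours on chromosome 5, both hold GGGAATTTCC, a match to the NF-kB motif (GGGA, any base, TTTCC) that stands in 0.356% of promoters. It spans bases 71 to 62 before the start of Cxcl1 and bases 97 to 88 before that of Cxcl2.

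Of 15 further CXC ligands and receptors, 7 passed the filter, and Cxcl5 was the only call. Cxcl5, another ligand of Cxcr2, had 9, 9 and 20 reads in F-PRT replicates 2 to 4. It had 7, 1, 12 and 18 reads in S-PRT replicates 1 to 4, against 2, 1, 7 and 5 reads in NR replicates 1 to 4. All F-PRT libraries were above all NR libraries, as for 17.5% of tested genes in CPM, whereas S-PRT replicate 2 lay among the lowest. Its log2 fold change was 2.03 ± 0.58 in F-PRT against NR (edgeR adjusted p = 0.0309) and 1.39 ± 0.57 in S-PRT against NR (edgeR adjusted p = 0.218). With the length trend removed it was 1.84 in F-PRT (edgeR adjusted p = 0.0901). The receptor Cxcr2 had 3 to 8 reads in F-PRT, 2 to 15 in S-PRT and 2 to 8 in NR libraries and was not tested. Of 10 tested genes of the NF-kB and interleukin-1 list, 3 were called higher in F-PRT against NR and 1, Il1b, in S-PRT against NR, with medians of 0.19 in both. The shares of all genes called higher were 10.8% in F-PRT and 0.872% in S-PRT. The 2 with the smallest p in F-PRT were Relb at 0.66 and Nfkbiz at 0.97 (edgeR adjusted p = 0.0106 and 0.0189), and Il1b, the interleukin-1 beta gene, was at 2.15 in S-PRT (edgeR adjusted p = 0.0167). With the replicate block, 3 of the 9 genes of this list then tested were called higher in S-PRT against NR. Neutrophil markers had 3 of 7 tested and 0 called, with medians of 1.2 in F-PRT and 1.645 in S-PRT against NR. Their summed TPM was 6.24 to 22.0 in F-PRT, 5.42 to 21.4 in S-PRT and 2.80 to 7.72 in NR libraries. The replicate block gave 2 of these 3 markers as higher in S-PRT against NR. Both blocked counts stand beside more calls over all genes than without the block.

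Cxcl16, a membrane-anchored ligand of Cxcr6 made by macrophages and endothelium, had the same estimate against NR in both groups without passing the test. Cxcl16 (ENSMUSG00000018920.12) was at 10.9, 5.34 and 10.6 CPM in F-PRT replicates 2 to 4. It was at 5.61, 6.30, 12.2 and 11.5 CPM in S-PRT replicates 1 to 4, and at 5.23, 3.4, 5.81 and 5.66 CPM in NR replicates 1 to 4. F-PRT replicate 3 and S-PRT replicate 1 lay within the NR range and the other irradiated libraries above it. The log2 fold change of this gene was 0.84 ± 0.31 in F-PRT (95% interval 0.17 to 1.5, edgeR adjusted p = 0.0719) and 0.83 ± 0.29 in S-PRT (95% interval 0.21 to 1.45, edgeR adjusted p = 0.153). With the replicate block it was called in S-PRT, at 0.80 (edgeR adjusted p = 0.017). It was called in 2 of 10 settings in each comparison (adjusted p of 0.0206 to 0.352 in F-PRT, where DESeq2 gave 0.041, and 0.017 to 0.574 in S-PRT), and in F-PRT also without F-PRT replicate 3 (log2 fold change 1.08, edgeR adjusted p = 0.0198). Its expected counts were whole in 1 of 11 libraries, which means that RSEM divided some reads between this gene and others, and its level is uncertain. It overlaps Zmynd15, which had log2 fold changes of 0.65 in F-PRT and 0.70 in S-PRT (edgeR adjusted p = 0.307 and 0.386).

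Cxcl14, a ligand made at rest in epithelia and stroma, and Cxcl13, which draws B cells through Cxcr5, did not pass the test. Cxcl14 (ENSMUSG00000021508.12) was at 3.84, 5.06 and 16.1 CPM in F-PRT replicates 2 to 4. It was at 8.14, 8.68, 11.2 and 4.52 CPM in S-PRT replicates 1 to 4, and at 8.56, 5.35, 12.4 and 9.19 CPM in NR replicates 1 to 4. The groups overlapped, and F-PRT replicates held both the lowest and the highest value of all libraries. Against NR its log2 fold change was -0.07 ± 0.44 in F-PRT (95% interval -1.02 to 0.88, edgeR adjusted p = 0.928) and -0.14 ± 0.41 in S-PRT (95% interval -1.02 to 0.75, edgeR adjusted p = 0.9). Cxcl13 (ENSMUSG00000023078.7) had 1 read in each of S-PRT replicates 1 and 4 and NR replicate 3, and 0 in the other 8 libraries, where a count of 0 allows 0.0666 to 0.167 CPM. Exact two-sided permutation p was 1.0 in F-PRT and 0.714 in S-PRT against NR. Of 6 B cell markers, 6 were tested and 0 called, with medians of -0.60 and -0.53.

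The receptors of Cxcl12 did not pass the test in any comparison. Ackr3 (ENSMUSG00000044337.6) was at 40.7, 35.3 and 51.2 CPM in F-PRT replicates 2 to 4. It was at 46.1, 42.4, 41.3 and 44.7 CPM in S-PRT replicates 1 to 4, and at 41.2, 38.9, 45.3 and 42.1 CPM in NR replicates 1 to 4. The groups overlapped, and F-PRT held the lowest and the highest library. Its log2 fold change was 0.02 ± 0.11 in F-PRT (95% interval -0.22 to 0.26, edgeR adjusted p = 0.917) and 0.06 ± 0.10 in S-PRT (95% interval -0.17 to 0.28, edgeR adjusted p = 0.818). These were the narrowest intervals among the members, and the sign of the Ackr3 estimate changed with the scaling, to -0.01 in F-PRT with DESeq2 size factors and to -0.09 in S-PRT with library size only.

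Cxcr4 (ENSMUSG00000045382.7), the signalling receptor, was at 1.75, 1.61 and 3.91 CPM in F-PRT replicates 2 to 4. It was at 1.59, 2.62, 2.43 and 2.91 CPM in S-PRT replicates 1 to 4, and at 2.49, 1.91, 3.44 and 5.28 CPM in NR replicates 1 to 4. The groups overlapped, with NR replicate 4 the highest library. Cxcr4 had a log2 fold change of -0.42 ± 0.37 in F-PRT (95% interval -1.23 to 0.39, edgeR adjusted p = 0.442) and -0.47 ± 0.34 in S-PRT (95% interval -1.21 to 0.28, edgeR adjusted p = 0.5).

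The balance of ligand and receptors was read as log2 ratios of TPM within a library, which do not depend on the scaling between libraries. They do depend on the transcript lengths estimated in each library, and that of Cxcl12 was shorter in every irradiated library than in NR. The part of these lengths in the ratios was not tested. Cxcl12 over Ackr3 was -0.74, -0.46 and 0.34 in F-PRT replicates 2 to 4. It was -0.65, -0.34, -0.34 and -0.53 in S-PRT replicates 1 to 4, against 0.54, 0.53, 0.55 and 0.84 in NR replicates 1 to 4. Cxcl12 exceeded Ackr3 in every NR library and in F-PRT replicate 4, and Ackr3 exceeded Cxcl12 in the other irradiated libraries. The groups were separate from NR, with differences of -0.90 in F-PRT and -1.08 in S-PRT. Exact two-sided permutation p was 0.0286 for each, the smallest possible, and 0.0857 after adjustment over 9 tests, which misses 0.05. Cxcr4 over Ackr3 averaged -3.31 ± 0.41 in F-PRT, -3.30 ± 0.38 in S-PRT and -2.73 ± 0.63 in NR libraries, and its groups overlapped (exact two-sided permutation p = 0.2 against NR for each, adjusted 0.3).

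**Figure D5:**
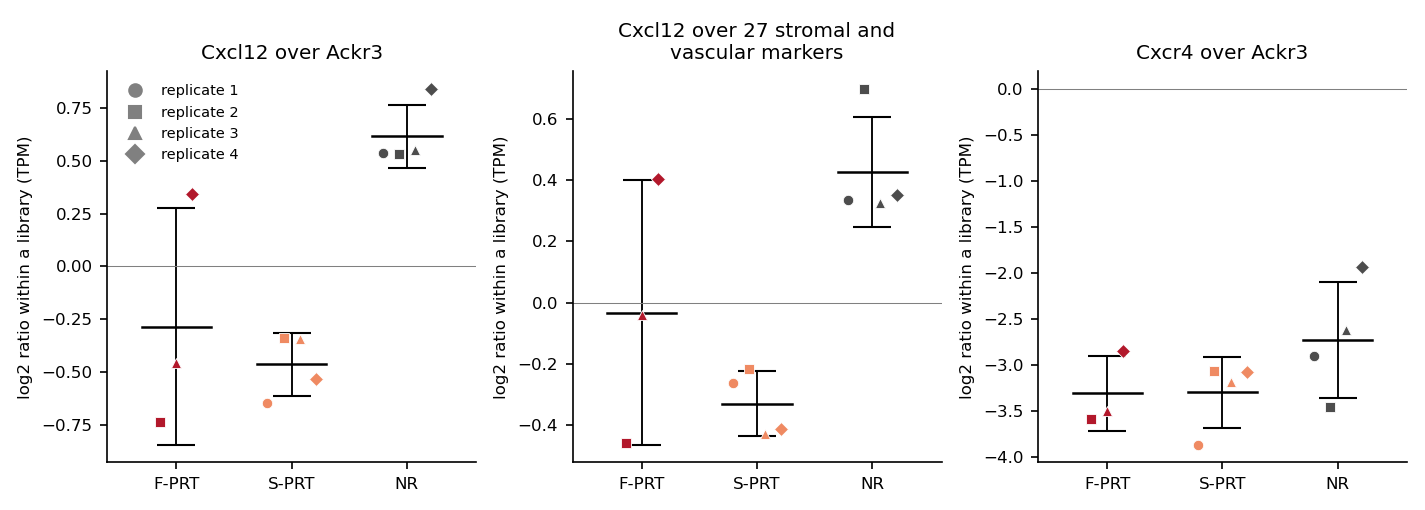
Log2 ratios of TPM (pseudocount 0.1) within each library for Cxcl12 over Ackr3, Cxcl12 over the mean of 27 stromal and vascular markers and Cxcr4 over Ackr3, by group, with symbols for replicates, bars for means and whiskers for 1 SD (n = 3, 4 and 4). NR lies above 0 in both Cxcl12 panels, S-PRT lies below 0 there, and F-PRT spans -0.74 to 0.34 and -0.46 to 0.40.

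Among 14 partners and processing genes of the axis, 2 were called higher and 3 lower in F-PRT against NR, and 1 higher and 0 lower in S-PRT, with medians of 0.01 and -0.01. Over all genes tested, 10.8% were called higher and 8.67% lower in F-PRT, and 0.872% and 0.419% in S-PRT. Mif, a cytokine that also binds Cxcr4, averaged 42.8 ± 3.56 CPM in F-PRT, 42.4 ± 3.78 in S-PRT and 29.5 ± 1.48 in NR libraries, and the irradiated libraries, at 38.0 to 46.7 CPM, lay above the NR libraries at 27.5 to 30.8 CPM. Such separation above NR held for 17.5% of tested genes in F-PRT and 7.34% in S-PRT. Mif rose by 0.54 ± 0.09 in F-PRT and 0.52 ± 0.08 in S-PRT (edgeR adjusted p = 0.00624 and 0.0167). With the length trend removed it was at 0.03 and 0.20 (edgeR adjusted p = 0.844 and 0.201), and its expected counts were not all whole, so some reads were divided with another gene. Dpp4, the membrane peptidase that truncates and inactivates Cxcl12, was at 0.798, 0.779 and 1.35 CPM in F-PRT replicates 2 to 4. It was at 1.80, 1.12, 1.45 and 1.71 CPM in S-PRT replicates 1 to 4, and at 2.61, 1.64, 2.84 and 3.24 CPM in NR replicates 1 to 4. All F-PRT libraries were below all NR libraries, as for 13.9% of tested genes, and S-PRT overlapped NR. Dpp4 fell by 1.38 on the log2 scale in F-PRT (SE 0.29, edgeR adjusted p = 0.0115), and stood at -0.77 ± 0.25 in S-PRT (edgeR adjusted p = 0.14; with the replicate block 0.0259). Removing the length trend left Dpp4 at -1.09 in F-PRT (edgeR adjusted p = 0.0682), and 0 of the 14 genes were called in either comparison with NR. With the replicate block 2 were called higher and 1 lower in S-PRT, where calls over all genes rose as well. Of 11 tested hypoxia response genes, a class that includes regulators of the axis, 1 was called higher and 1 lower in F-PRT and 0 and 1 in S-PRT. The higher one was Ankrd37, at 1.03 (edgeR adjusted p = 0.0144). The lower one was Epas1, which encodes the hypoxia factor HIF-2 alpha, at -0.68 and -0.43 (edgeR adjusted p = 0.00439 and 0.039). With the length trend removed 0 hypoxia genes were called in S-PRT, where Epas1 was at -0.31 (edgeR adjusted p = 0.133), and only Epas1 in F-PRT, and with the replicate block 2 were called lower in S-PRT.

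Leukocyte markers were read beside the chemokines that attract these cells. Of 10 macrophage markers, 2 were called higher in F-PRT (C1qa and C1qb) and 0 in S-PRT, with medians of 0.52 and 0.83, and 7 were called higher in S-PRT with the replicate block. Over all genes tested without the block, 10.8% were called higher and 8.67% lower in F-PRT, and 0.872% and 0.419% in S-PRT. The block raised the calls over all genes in S-PRT as well, so these shares do not apply to the blocked counts. The monocyte receptor gene Ccr2 was the 1 call among 5 tested monocyte markers in each comparison. It was at 9.69, 7.62 and 8.46 CPM in F-PRT, at 6.13, 6.84, 12.8 and 12.2 CPM in S-PRT and at 2.17, 1.31, 2.16 and 1.93 CPM in NR libraries, in replicate order, with no overlap with NR. Such separation above NR held for 17.5% of tested genes in F-PRT and 7.34% in S-PRT. Of 6 dendritic cell markers, 6 had positive estimates in each comparison with NR, with medians of 1.315 in F-PRT and 1.477 in S-PRT. Those called higher were 2 in F-PRT, Cd209a at 2.56 and Batf3 at 1.74 (edgeR adjusted p = 0.0165 and 0.0432), and 0 in S-PRT. With the length trend removed, 0 macrophage and 0 dendritic cell markers were called in either comparison, and Ccr2 stayed called in both. With the replicate block, 2 monocyte markers and 1 of the 4 dendritic cell markers then tested were called higher in S-PRT. The summed macrophage TPM was 136 to 369 in F-PRT, 164 to 393 in S-PRT and 114 to 246 in NR libraries. Among smooth muscle, lymphatic endothelial, mesothelial and cardiomyocyte markers, Prox1 and Ryr2 were called lower in F-PRT and 0 genes in S-PRT, and 0 of 4 adipocyte markers were tested. Neither call held with the length trend removed, and 1 lymphatic endothelial marker was called lower in S-PRT with the replicate block. The 3 tested mesothelial and epicardial markers, 1 of them positive in each comparison, had medians of -3.149 in F-PRT and -2.623 in S-PRT against NR. The summed TPM of that list was 0.79 to 1.78 in F-PRT, 0.59 to 1.55 in S-PRT and 0.84 to 7.92 in NR libraries. Medians of the 5 smooth muscle markers were 0.299 in F-PRT and 0.932 in S-PRT. Whether these levels had a part in the chemokine results was not tested.

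Between F-PRT and S-PRT the intervals set how large a difference could have gone unseen. The log2 difference in Cxcl12 was 0.05 ± 0.22 (95% interval -0.43 to 0.53, edgeR adjusted p = 0.941). In Cxcl10 it was -0.22 ± 0.61 (95% interval -1.54 to 1.11, edgeR adjusted p = 0.891). In Ackr3 it was -0.04 ± 0.11 (95% interval -0.28 to 0.20, edgeR adjusted p = 0.895), the narrowest of the 8 tested. The intervals of Cxcl1, Cxcl9, Cxcl14, Cxcl16 and Cxcr4 reached from -1.45 at the lowest to 1.02 at the highest. In CPM, 0 tested members had groups that did not overlap, beside 5.45% of genes with all F-PRT libraries higher and 5.17% lower. Without F-PRT replicate 4 the Cxcl12 difference was -0.43 and the Cxcl14 difference -0.88, against 0.05 and 0.07 with it. Exact two-sided permutation p was 0.971 for Cxcl2 and 0.429 for Cxcl13. Differences in the log2 ratios were 0.18 for Cxcl12 over Ackr3, 0.30 for Cxcl12 over the 27 markers and -0.01 for Cxcr4 over Ackr3 (exact two-sided permutation p = 0.714, 0.257 and 0.971, adjusted 0.804, 0.331 and 0.971).

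By median TPM the order of the members also differed between the groups. In F-PRT libraries the order was Ackr3 at 14.7, Cxcl12 at 8.78, Cxcl16 at 6.75, Cxcl14 at 2.45, Cxcl10 at 2.28, Cxcl9 at 1.88, Cxcr4 at 1.13 and Cxcl1 at 1.05 TPM. In S-PRT it was Ackr3 at 12.3, Cxcl12 at 9.28, Cxcl16 at 4.21, Cxcl14 at 3.79, Cxcl10 at 2.77, Cxcl9 at 2.13, Cxcr4 at 1.25 and Cxcl1 at 1.2 TPM. In NR it was Cxcl12 at 20.9, Ackr3 at 14.3, Cxcl14 at 5.40, Cxcl16 at 2.78, Cxcr4 at 1.94, Cxcl9 at 1.49, Cxcl1 at 0.470 and Cxcl10 at 0.305 TPM. Neighbours in these orders overlapped in range except Cxcl12 over Cxcl16 in S-PRT, and Ackr3 over Cxcl14 and Cxcl9 over Cxcl1 in NR. Cxcl2 and Cxcl13 came last in each group, and Cxcl1 was separate from Cxcl2 in F-PRT and S-PRT libraries.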

How the data were processed

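The deposited table of each library gives, per the file headers, expected counts, TPM and lengths for 55414 genes, of which 52081 matched a symbol. Per the labels' protocols, RNA with an integrity number above 9 went into a poly(A)-selected directional library. The submitters' processing notes list STAR, RSEM, FastQC, edgeR and cutadapt without versions. They name mm10 as well as GRCm39 as builds, so coordinates are given only for RefSeq promoters on GRCm38.p6. The use of strand in counting is not given in the sources used, which leaves overlapping and antisense genes uncertain. The authors' expected counts from RSEM share ambiguous reads between genes and need not be whole (tolerance 1e-09 counts). The TPM values deposited by the authors account for effective length and add up to the same sum in every library.

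Groups and replicate numbers came from the titles. Expected counts were rounded, filtered with filterByExpr (minimum count 10, minimum total 15), scaled with TMM and fitted for all 11 libraries in edgeR 4.0.16 (R 4.3.3), with Benjamini-Hochberg adjustment over the 14556 genes tested. Members below the filter and the 3 ratios had exact two-sided permutation tests over libraries, the ratios on log2(TPM + 0.1). Log2 CPM used a prior count of 2. The 95% intervals come from the edgeR fit and include its estimated spread between libraries. Floors, taken as 3 counts per library, cover 95% and counting error only. The text names all members, the called members of other lists with the smallest p (up to 2 a comparison), called genes of the list of further CXC genes, and the 5 closest profiles of Cxcl12 and Cxcl10. The members and lists were chosen with earlier results of these data known.

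Same-numbered NR and S-PRT libraries deviated together from their group means (correlations 0.113 to 0.219, 4 of 4 over 0.1), so these numbers were read as possible pairs. Only 2 of 4 were closest to their own number, and unlike numbers reached 0.3, so the pairing is weak. In both groups the TMM factor rose and the mitochondrially encoded share fell from replicate 1 to 4. That share went from 43.8% to 30.6% in NR and from 43.5% to 37.1% in S-PRT. The part of this order in the correlations was not tested. The main fit has no block, and blocked values are given beside it where they change a call. In S-PRT against NR the block also raised the number of calls over all genes. This pairing comes from the data and titles alone. For F-PRT the correlations did not pass this rule (1 of 3 with NR, 0 of 3 with S-PRT). Replicates differed by more than counting noise (chi-square per degree of freedom at least 5.92). Alternatives were DESeq2 1.42.0, its size factors, library size alone, no low-count filter, no mitochondrially encoded genes, a length trend removed, only 2 groups in the fit, a replicate block, limma 3.58.1 on log2(TPM + 1), each library left out and, added after seeing the data, limma on log2 CPM.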

Additional observations from a re-analysis of the deposited data

How the results depend on the processing

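Depth limits Cxcl2, Cxcl13 and the NR level of Cxcl10, and the causes of the changes below were not tested. Scaling by library size only shifted the median log2 fold change of all genes by 0.07 in F-PRT against NR, -0.14 in S-PRT against NR and 0.19 in F-PRT against S-PRT. Cxcl12 stayed lower and Cxcl10 higher than NR under every setting run. In F-PRT against NR, 2 members were called. That count was 0 with library size only, 0 with the length trend removed, 0 in limma on log2(TPM + 1), 0 with the replicate block, 4 without the low-count filter and 4 in DESeq2. In S-PRT against NR, also with 2, it was 0, 0, 0 and 4 for library size, length trend, limma on TPM and block. The 2841 genes called in F-PRT against NR became 134, 509, 71 and 29 under those 4 settings. The 188 in S-PRT against NR became 14, 44, 2 and 1371, and 605 without the filter, 697 in DESeq2 and 557 with only 2 groups fitted. For F-PRT against S-PRT the 0 genes became 3 with DESeq2 size factors, 71 without the filter, 3 without mitochondrially encoded genes, 168 in DESeq2, 9 in limma on TPM and 3 in limma on log2 CPM. The block, whose numbers do not pair F-PRT libraries by the rule used, gave 0 genes there. Leaving out 1 library gave 1 to 4 members and 1382 to 3784 genes in F-PRT against NR, 0 to 2 members and 26 to 444 genes in S-PRT against NR, and 0 members and 0 to 103 genes in F-PRT against S-PRT.

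Only log2 fold changes that were not called turned sign. In F-PRT against NR, Ackr3 was -0.009 with DESeq2 size factors, -0.007 without mitochondrially encoded genes, -0.008 in DESeq2 and -0.017 with the block, and library size only gave 0.022 for Cxcl14 and 0.017 for Cxcl9. In S-PRT against NR, Ackr3 was -0.088 with library size only and -0.134 in limma on TPM. In F-PRT against S-PRT, library size only gave 0.156 for Cxcl1 and 0.174 for Ackr3, and limma on TPM gave 0.101 and 0.139. The length trend gave -0.081 for Cxcl16, -0.06 for Cxcl14 and -0.086 for Cxcr4. Limma on log2 CPM gave -0.188 for Cxcl14, -0.061 for Cxcr4 and -0.057 for Cxcl12, and the block gave -0.169 for Cxcl16, -0.184 for Cxcl14, -0.223 for Cxcr4 and -0.074 for Cxcl12. Cxcl16 was -0.018 with DESeq2 size factors, -0.004 without the filter and -0.018 in DESeq2. With 1 library left out, Ackr3 ran between -0.14 and 0.136, Cxcl14 between -1.014 and 0.279 and Cxcl9 between -0.407 and 0.376 in F-PRT against NR, and Cxcl14 between -0.349 and 0.076 in S-PRT against NR. In F-PRT against S-PRT the ranges were -0.162 to 0.246 for Cxcl16, -0.877 to 0.414 for Cxcl14, -0.468 to 0.121 for Cxcl1, -0.894 to 0.168 for Cxcl10, -0.198 to 0.068 for Ackr3, -0.513 to 0.247 for Cxcr4, -0.428 to 0.265 for Cxcl12, -0.133 to 0.406 for Cxcl12 over Ackr3 and -0.245 to 0.125 for Cxcr4 over Ackr3. The other ratios kept their direction under each unit, pseudocount and omitted library.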
